A study of Mus musculus with 6 samples.

Results

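The genes examined here make, break down, carry and sense retinoic acid. They are Aldh1a2 for synthesis, Cyp26a1 and Dhrs3 for clearance and storage, Stra6, Crabp1 and Crabp2 for uptake and binding, and the receptors Rara, Rarb and Rarg. The 9 genes were chosen by symbol, for their roles, from a table of 23353 genes, and all 9 are listed in it. They and the further lists below were chosen with earlier results of these data known. RNA was sequenced from embryoid bodies (EBs), clumps of mouse embryonic stem cells that differentiate in suspension. The wildtype group is the parental W9.5 embryonic stem cell line. The EVX1-Δfs group is a single edited clone of W9.5, clone 14, with small frameshift deletions in both alleles of the homeodomain-encoding exon 2 of Evx1, a transcription factor gene of the posterior primitive streak. Both groups spent 4 days in serum from which LIF, the cytokine that holds these cells undifferentiated, had been left out. Each group has 3 libraries, 1 from each of 3 differentiations that were started on different days. Because only 1 clone was sequenced, the edit and any other property of that clone cannot be told apart.

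Retinoic acid is a small hydrophobic signal made from vitamin A. Retinol enters cells with the help of the membrane receptor STRA6 and is oxidised to retinal, DHRS3 turns retinal back into retinol, and ALDH1A2 oxidises retinal irreversibly to retinoic acid, while CYP26A1 hydroxylates retinoic acid and so removes it. CRABP1 and CRABP2 bind retinoic acid in the cytoplasm, and the nuclear receptors RARα, RARβ and RARγ, paired with RXR, bind it at direct repeats in DNA. In the gastrulating mouse embryo Cyp26a1 is expressed at the posterior end and protects that tissue from retinoic acid, and Aldh1a2 comes on in the mesoderm of the trunk. Cyp26a1 and Rarb are themselves classical targets of the receptors.

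Cyp26a1 fell to 0.467 of its wildtype level in EVX1-Δfs EBs, and Stra6 rose from a low level, passing the filter on low counts only through the EVX1-Δfs libraries. Cyp26a1 averaged 1028 ± 115 normalized counts over the wildtype libraries and 480 ± 84.9 over the EVX1-Δfs libraries (SD, n = 3 each). Dhrs3, Crabp1, Crabp2, Rara and Rarg did not pass the test, and Aldh1a2 and Rarb had too few reads to enter it. A normalized count is a number of reads per gene divided by 1 factor per library, and a gene was tested when it reached 10 in at least 3 libraries. By that filter 7 of the 9 genes were tested, with 1 called higher (Stra6, with that limit) and 1 called lower at a Benjamini-Hochberg adjusted p under 0.05 from limma. Over all 13136 genes tested, 5.02% were called, 2.08% higher and 2.95% lower. With the replicate number as a block for the shared day of differentiation, limma called 76 genes higher and 146 lower in place of 273 and 387, and Cyp26a1 and Stra6 were called in that fit too. Scaling by upper-quartile factors gave 370 genes higher and 325 lower, and the same calls for these genes. In EBs, which are mixtures, fewer cells of a type and less RNA per cell cannot be told apart.

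The promoters of Cyp26a1 and Rarb are shown because, of the 17 RefSeq promoters searched for 8 of the 9 genes (all but Crabp2), they were those with a close match to the direct repeat that RAR and RXR bind. Each line gives the 250 bases before the start of transcription, 5′ to 3′ on the gene's strand (GRCm38.p6), with the half-sites of the repeat in capitals.
Cyp26a1, chr19:37697558-37697807, plus strand: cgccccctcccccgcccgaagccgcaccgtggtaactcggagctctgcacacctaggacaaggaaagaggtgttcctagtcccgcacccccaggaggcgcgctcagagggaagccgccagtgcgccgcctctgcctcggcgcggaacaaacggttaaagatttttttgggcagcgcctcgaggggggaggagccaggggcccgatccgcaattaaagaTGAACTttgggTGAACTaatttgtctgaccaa
Rarb, chr14:16575477-16575726, minus strand: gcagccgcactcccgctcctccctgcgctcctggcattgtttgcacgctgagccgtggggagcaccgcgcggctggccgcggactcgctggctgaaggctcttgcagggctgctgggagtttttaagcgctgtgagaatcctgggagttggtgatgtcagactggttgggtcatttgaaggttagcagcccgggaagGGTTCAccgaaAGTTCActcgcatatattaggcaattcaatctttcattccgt
The half-site AGGTCA is the consensus, and the search also took AGTTCA as well as GGGTCA together with the variant GGTTCA, in any pair of the same orientation, spaced by 1, 2 or 5 bases (DR1, DR2 and DR5), on both strands. Both matches shown are DR5, on the strand opposite to the gene in Cyp26a1 and on the gene's own strand in Rarb. They begin 32 and 53 bases before the start. Of 32851 RefSeq promoters of 300 bases, 0.0974% held a DR5 match and 0.588% held a match of any of the 3 spacings.

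In the 5000 bases before each gene's outermost start in the older annotation (GENCODE vM1 on NCBIM37, the assembly of mm9), 4 of the 9 genes held a match, shown here to place the repeats around Cyp26a1 beside those of its relatives. Each is written 5′ to 3′ on the strand where the repeat reads in the search's orientation, with half-sites in capitals.
Cyp26a1, DR5, chr19:37770399-37770415, 1899 bases upstream: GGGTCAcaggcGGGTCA
Cyp26a1, DR5, chr19:37772266-37772282, 32 bases upstream, opposite strand: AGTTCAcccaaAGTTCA
Crabp1, DR1, chr9:54607624-54607636, 4931 bases upstream, opposite strand: GGGTCAgAGTTCA
Crabp2, DR2, chr3:87751447-87751460, 1141 bases upstream: AGTTCAccAGGTCA
Rarg, DR2, chr15:102090904-102090917, 2969 bases upstream, opposite strand: AGGTCAgaGGGTCA
Cyp26a1 was the only one of the 9 with a DR5 match in this window, and it had a pair of them. The window lies before the outermost start only, and the DR5 match shown above for the RefSeq promoter of Rarb is not in it. Among 22380 protein-coding genes, 1.96% held a DR5 match in the same window, 4.03% a DR1, 6.93% a DR2 and 12.3% any of these. Of 251 tested genes with a DR5 match, 9 (3.59%) were called lower and 2 (0.797%) higher, beside the 2.95% and 2.08% of all tested genes given above. A match gives letters in DNA and is no measure of binding in these cells.

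Cyp26a1, the main retinoic acid hydroxylase of the early embryo, is at chr19:37772298-37776018 (NCBIM37, plus strand). In order of replicate, its normalized count was 897, 1112 and 1074 in the wildtype libraries. It was 391, 561 and 488 in the EVX1-Δfs libraries. The highest EVX1-Δfs library stood well below the lowest wildtype library. Groups that do not overlap were common in these data, in 3534 (26.9%) of the 13136 tested genes, so separation of the groups is given here and for the genes below as a description. On the log2(normalized count + 1) scale the change was -1.11 ± 0.13 (SE), with a 95% interval of -1.38 to -0.83 and a limma adjusted p of 4.94e-05. Between 419 and 1257 reads per library lie behind these values. In every alternative fit the gene was called lower, with changes from -1.23 to -0.967 and adjusted p-values of at most 0.000986, the largest of them with the replicate block.

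Dhrs3, the reductase that returns retinal to retinol and is itself induced by retinoic acid, gave no such difference. Its normalized count was 85.1, 51.3 and 95.04 in the wildtype libraries and 120, 60.9 and 79.1 in the EVX1-Δfs libraries. The groups overlapped in part, with EVX1-Δfs replicate 1 above the wildtype range and wildtype replicate 2 below the EVX1-Δfs range, and replicate 2 was the lowest library in both. The log2 change was 0.16, with a 95% interval of -0.36 to 0.68 and a limma adjusted p of 0.747. A change as large as that of Cyp26a1 lies outside this interval, whereas a rise of up to 0.68 does not. Its coefficient of variation, 29.7% in wildtype and 35.1% in EVX1-Δfs EBs, was the widest of the tested genes here other than Stra6 in wildtype, against medians of 11.99% and 11.4% over all tested genes.

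Aldh1a2, the retinaldehyde dehydrogenase that makes most retinoic acid in the trunk of the embryo, was barely detected. Its normalized count was 8.61, 8.85 and 17.2 in wildtype and 14.0, 6.77 and 4.76 in EVX1-Δfs EBs, from 60 reads over all 6 libraries. It reached the minimum of 10 in 1 library of each group and was not tested with the 13136 genes. In a limma fit over the 18245 genes with any read, where 2.77% of genes were called, its log2 change was -0.45 with a 95% interval of -1.41 to 0.51 and an adjusted p of 0.671. At this depth neither a fall as large as that of Cyp26a1 nor a modest rise could be told from no change.

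**Figure D1:**
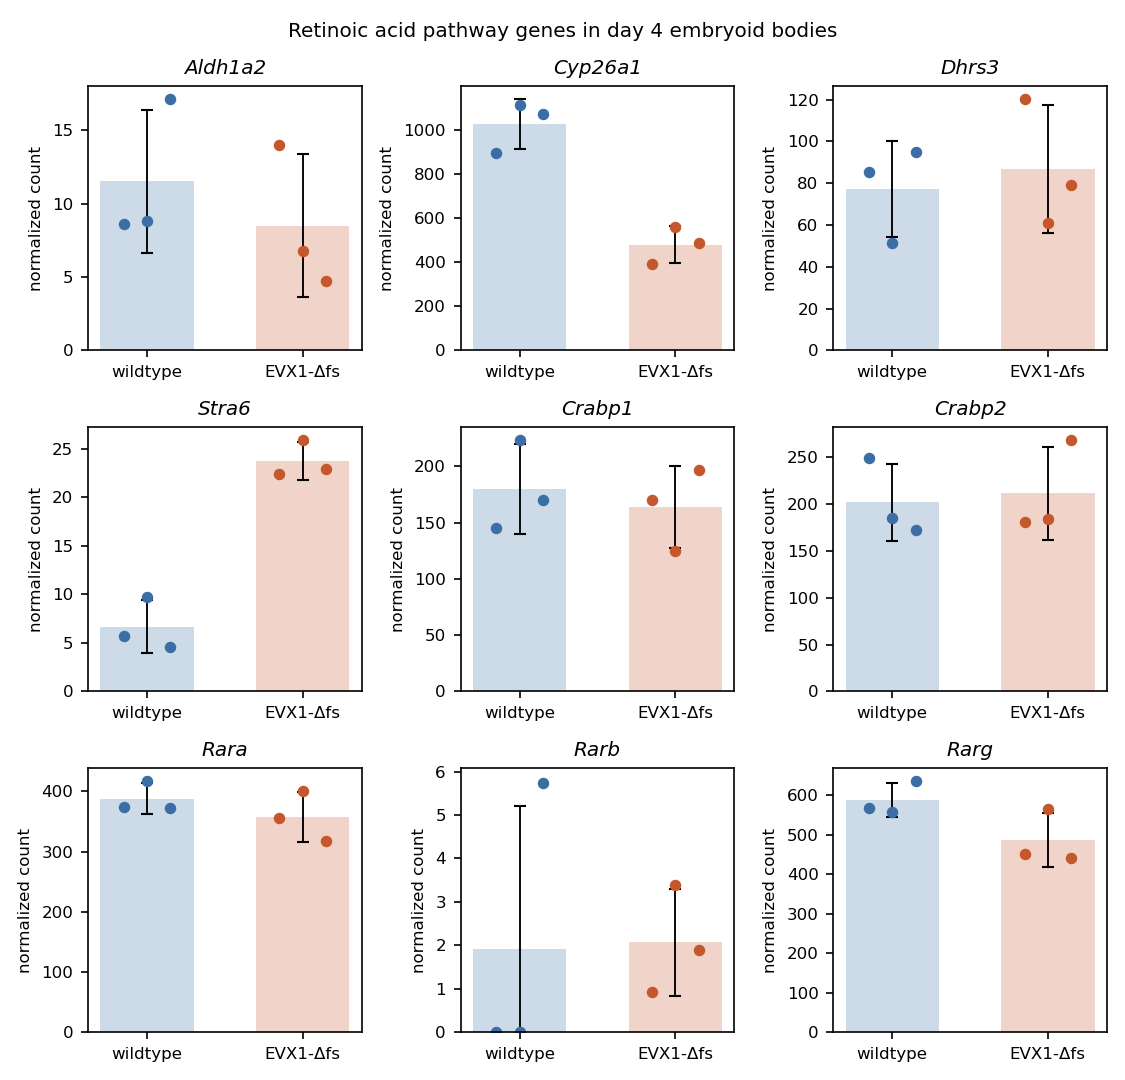
Normalized count of each of the 9 genes on linear axes that start at 0, with 1 point per library, bars at the group mean and error bars of 1 SD (n = 3). The wildtype and EVX1-Δfs points are separate for Cyp26a1, 897 to 1112 against 391 to 561, and for Stra6, 4.58 to 9.73 against 22.4 to 25.9, and overlap for the other genes, beside 26.9% of all tested genes with separate groups.

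Stra6, the cell surface receptor that takes up retinol from its plasma carrier, moved in the other direction. The gene is at chr9:57911595-58001803 (NCBIM37, plus strand). Its normalized count was 5.74, 9.73 and 4.58 in the wildtype libraries and 22.4, 25.9 and 22.9 in the EVX1-Δfs libraries. These values come from 6, 11 and 4 reads in wildtype and 24, 23 and 24 reads in EVX1-Δfs EBs. Every EVX1-Δfs library was above every wildtype library, as in the 26.9% of tested genes with separate groups, and the ratio of the group means was 3.55. The log2 change was 1.74 ± 0.40 (SE), with a 95% interval of 0.91 to 2.57 and a limma adjusted p of 0.0163. No wildtype library reached the minimum of 10, so Stra6 was tested only because it was high in EVX1-Δfs EBs.

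The Stra6 call depended on the fit. With the replicate block the limma adjusted p was 0.0495, and without EVX1-Δfs replicate 1, 2 or 3 it was 0.0629, 0.0559 and 0.0594, above the threshold of 0.05 each time. DESeq2 at its default settings gave this gene no adjusted p, and edgeR's quasi-likelihood test gave 0.0132. The log2 change was positive in all fits, from 0.81 with a pseudocount of 16 to 2.01 without wildtype replicate 2. These fits reuse the same libraries, and Stra6 passed the filter only through the EVX1-Δfs libraries. They are thus no separate support for its direction. The gene's annotated span overlaps Ccdc33 on the opposite strand and Gm16131 on the same strand, with 0 shared exon bases, and no other of the 9 genes shares exon bases with a neighbour.

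**Figure D2:**
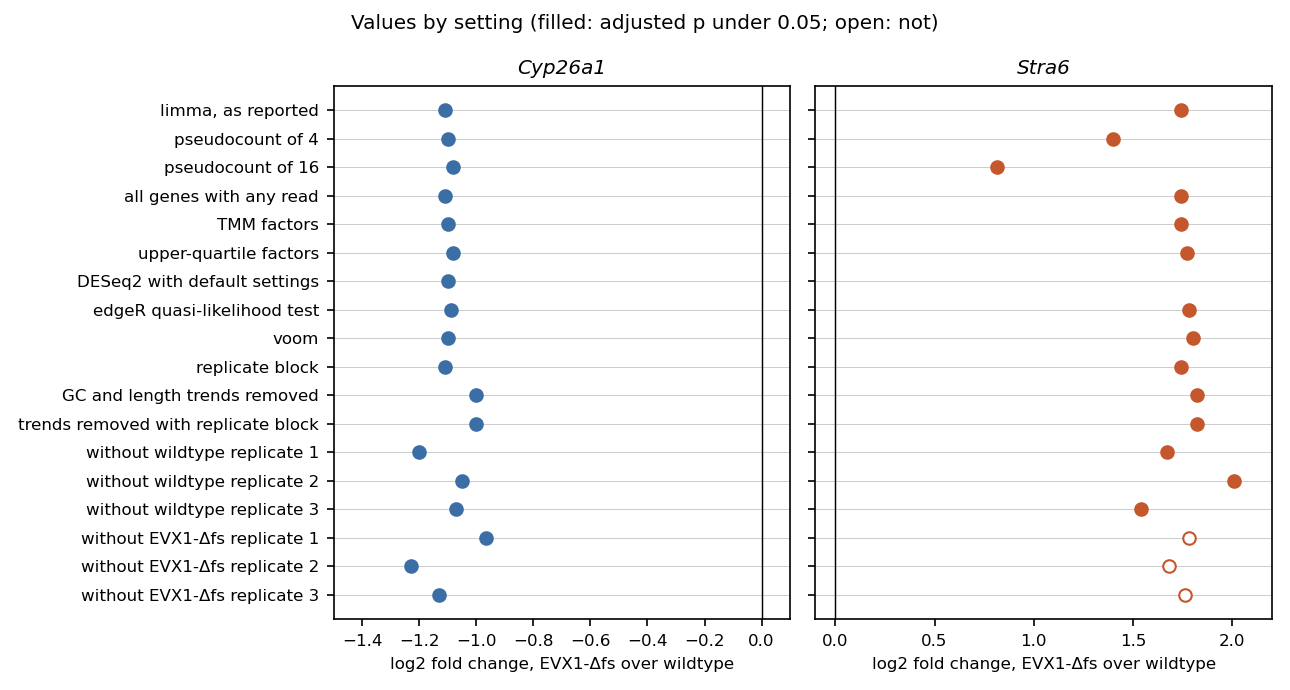
Log2 fold change of Cyp26a1 (left) and Stra6 (right), EVX1-Δfs over wildtype, as reported and under each alternative, with filled points where the adjusted p was under 0.05 and open points where it was not. Cyp26a1 stays between -1.23 and -0.967 and is filled throughout, whereas Stra6 is open in the 3 fits without an EVX1-Δfs library and has no point for DESeq2, which gave it no adjusted p.

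Crabp1 and Crabp2 encode cytoplasmic binding proteins for retinoic acid, of which CRABP2 is known to hand the ligand to RAR in the nucleus. The normalized count of Crabp1 was 145, 224 and 171 in wildtype and 170, 125 and 197 in EVX1-Δfs EBs. That of Crabp2 was 248.7, 185 and 172 in wildtype and 181, 184 and 269 in EVX1-Δfs EBs. For both genes the groups overlapped over most of their range. The log2 change was -0.13 for Crabp1 (95% interval -0.52 to 0.25, limma adjusted p = 0.708) and 0.06 for Crabp2 (95% interval -0.30 to 0.42, limma adjusted p = 0.872). Both intervals leave out a change of the size seen for Cyp26a1.

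Crabp2 had more reads than Crabp1 in 5 of the 6 libraries. The ratio of Crabp1 to Crabp2 counts was 0.585, 1.21 and 0.993 in the wildtype libraries and 0.938, 0.681 and 0.734 in the EVX1-Δfs libraries. The wildtype values spanned the EVX1-Δfs values on both sides. The mean log2 ratio was -0.17 ± 0.54 in wildtype and -0.36 ± 0.24 over the EVX1-Δfs libraries (SD, n = 3), a difference of -0.19 (exact two-sided permutation test, p = 0.6). With 3 libraries against 3, such a test over 20 assignments cannot give a p under 0.1. Without wildtype replicate 2 the difference changed sign, to 0.0279.

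Rara and Rarg, the receptor genes that carry nearly all RAR reads in these EBs, differed little between the groups. The normalized count of Rara was 374, 418 and 372 in wildtype and 356, 400 and 317 in EVX1-Δfs EBs. That of Rarg was 566, 558 and 637 in wildtype and 452, 565 and 441 in EVX1-Δfs EBs. Rarg was below its wildtype range in 2 EVX1-Δfs libraries and inside it in replicate 2, while Rara overlapped more widely. The log2 change of Rara was -0.12 (95% interval -0.39 to 0.15, limma adjusted p = 0.618). For Rarg it was -0.28 (95% interval -0.54 to -0.02), and its adjusted p of 0.189 did not pass the test. Genes with GC-rich exons tended to lower fold changes in these libraries (Spearman rho = -0.461 across 12970 genes, which are not independent), and these receptors have the highest GC content of the 9 genes, 60.9% for Rara and 59.2% for Rarg. With trends on GC content and length removed, the log2 change was 0.04 for Rara and -0.13 for Rarg.

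Rarb, the receptor gene best known for its induction by retinoic acid, was close to silent. It had 0, 0 and 5 reads in the wildtype libraries and 1, 3 and 2 reads in the EVX1-Δfs libraries. These 11 reads stand against 2257 for Rara and 3227 for Rarg. It was not tested with the 13136 genes, and in the fit over all genes with any read its log2 change was 0.62 with a 95% interval of -0.70 to 1.94 and a limma adjusted p of 0.670. The DR5 repeat shown above thus lies before a gene with at most 5 reads per library in one case and before the gene with the most reads per kilobase of the 9 in the other.

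The make-up of the receptor family was compared as the Rarg share of all RAR reads, which is independent of the library factors. It was 60.2%, 57.2% and 62.8% in wildtype and 55.9%, 58.3% and 58.0% in EVX1-Δfs EBs. The groups overlapped, with wildtype replicate 2 inside the EVX1-Δfs range. The mean was 60.1% ± 2.78 in wildtype and 57.4% ± 1.33 over the EVX1-Δfs libraries (SD, n = 3), a difference of -2.65 percentage points (exact two-sided permutation test, p = 0.3).

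To order the genes by abundance, normalized counts were divided by the merged length of annotated exons. Per kilobase of exon, the wildtype means ran from 580 for Cyp26a1 through 224 for Crabp1, 153 for Crabp2, 143 for Rarg, 84.8 for Rara and 26.4 for Dhrs3 to 5.10 for Aldh1a2, 1.15 for Stra6 and 0.580 for Rarb. Transcripts for removal and binding of retinoic acid thus stood far above those for its synthesis and for retinol uptake. In EVX1-Δfs EBs Cyp26a1 was still first, at 271 ± 47.9 (SD, n = 3) against 205 ± 45.4 for Crabp1, and it was above Crabp1 in 3 of 3 libraries of each group. Stra6 and Aldh1a2 were the neighbours that exchanged ranks, with Aldh1a2 above Stra6 in 3 of 3 wildtype libraries and in 1 of 3 EVX1-Δfs libraries. Crabp2 and Rarg did not differ beyond their spread in wildtype, where 2 of 3 libraries kept the order, and the same held for Crabp1 and Crabp2.

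**Figure D3:**
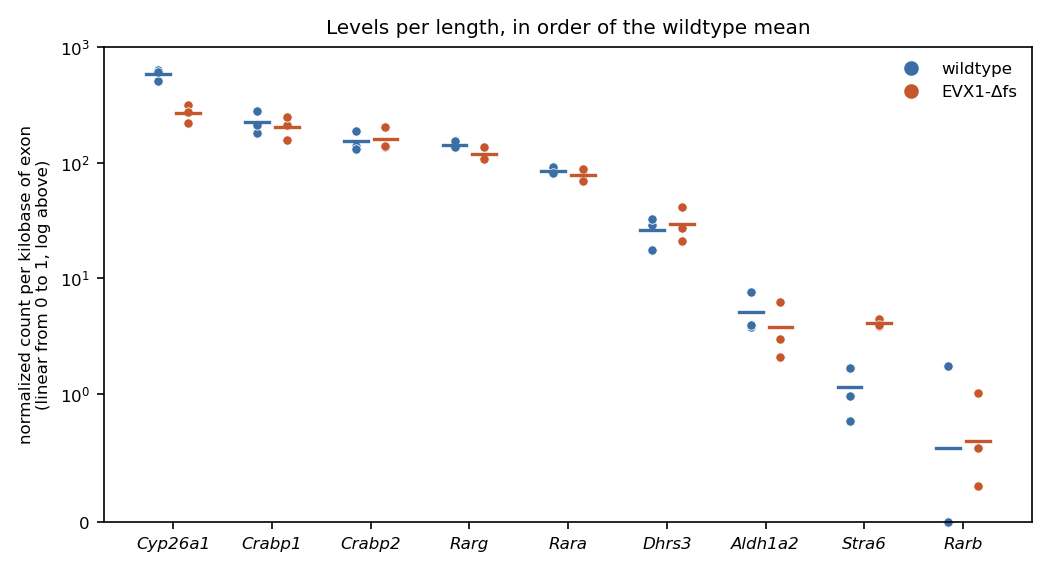
Normalized count per kilobase of annotated exon for the 9 genes, in order of the wildtype mean, with 1 point per library and a line at each group mean, on an axis that is linear from 0 to 1 and logarithmic above. Cyp26a1 has the highest mean in both groups, 580 in wildtype and 271 in EVX1-Δfs EBs, and Aldh1a2, Stra6 and Rarb lie at 5.10 or below in wildtype.

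The balance of removal against synthesis by Aldh1a2 was read as the ratio of Cyp26a1 to Aldh1a2 counts within each library. Aldh1a3, a second synthesis gene with a higher mean count (50.1 in wildtype, 27.9 in EVX1-Δfs EBs), is not part of this ratio. The ratio was thus no measure of synthesis as a whole. The ratio of Cyp26a1 to Aldh1a2 was 104, 126 and 62.5 in wildtype and 27.9, 82.8 and 102 in EVX1-Δfs EBs. Only EVX1-Δfs replicate 1 lay outside the wildtype range. The mean log2 ratio was 6.55 ± 0.52 in wildtype and 5.95 ± 1.01 over the EVX1-Δfs libraries (SD, n = 3), a difference of -0.60 (exact two-sided permutation test, p = 0.5). Aldh1a2 had at most 15 reads in any library. The difference was -0.0229 without EVX1-Δfs replicate 1.

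Beyond the 9 genes, 54 further genes of retinoid biology were examined, of which 35 were tested, 4 were called lower and 0 higher by limma. At an unadjusted limma p under 0.05 there were 11 lower and 0 higher, where 12.4% of all tested genes were lower and 10.7% higher by that measure, and DESeq2 and edgeR each called 4 lower and 0 higher. All of the calls fell in the list of genes known to respond to retinoic acid, which had 10 tested genes of 18, a median log2 change of -0.76 and 6 genes not called. For comparison, the median over all tested genes was 0.000216. In the other lists 0 genes were called by limma, DESeq2 or edgeR, and 6 were lower at an unadjusted limma p under 0.05. The carriers and storage enzymes had 5 tested genes of 8 (median 0.17), the retinol and retinal oxidising enzymes 8 of 15 (median -0.30), the other clearance enzymes 1 of 2 (-0.71), and the receptor partners and coregulators 11 of 11 (median 0.10).

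Of the responsive genes called lower, 3 are described here, all of them genes for transcriptional regulators. Zfp703, which encodes a zinc finger corepressor, had normalized counts of 1038, 1274 and 1123 in wildtype and 621, 615 and 522 in EVX1-Δfs EBs. Hoxb1, an anterior Hox gene with a known retinoic acid response element, had 39.2, 42.5 and 75.6 in wildtype and 14.0, 16.9 and 15.2 in EVX1-Δfs EBs. Meis2, a TALE homeodomain cofactor of Hox proteins, had 136, 130 and 145 in wildtype and 71.0, 75.6 and 69.6 in EVX1-Δfs EBs. The groups did not overlap in these 3 genes, as in 26.9% of all tested genes. Their log2 changes were -0.96 for Zfp703, -1.65 for Hoxb1 and -0.92 for Meis2, with limma adjusted p-values of 6.53e-05, 0.00343 and 0.00427. All 3 were called lower in every alternative fit, edgeR and DESeq2 included. None of them held a DR1, DR2 or DR5 match in its 5000 upstream bases. That search took only the half-sites given above and does not cover elements outside the window.

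Among the other genes of the pathway, Rdh10, which oxidises retinol to retinal in the step before Aldh1a2, had 56.4, 51.3 and 32.1 normalized counts in wildtype and 57.9, 75.6 and 59.1 in EVX1-Δfs EBs. Its groups were separate, as in 26.9% of tested genes, and the log2 change of 0.48 (95% interval -0.02 to 0.99) did not pass the test (limma adjusted p = 0.238). The RXR partners of the receptors did not pass it either, with log2 changes of -0.24 for Rxra, -0.38 for Rxrb and 0.02 for Rxrg and limma adjusted p-values of 0.282, 0.0860 and 0.974. Rxrb was called lower when EVX1-Δfs replicate 2 was left out (-0.51, limma adjusted p = 0.0402). Cyp26b1 and Cyp26c1, the relatives of Cyp26a1, were scarce. Cyp26b1 had 20.1, 12.4 and 12.6 normalized counts in wildtype and 7.47, 6.77 and 12.4 in EVX1-Δfs EBs (log2 change -0.71, limma adjusted p = 0.322). Cyp26c1, whose gene ends 4409 bases before Cyp26a1 begins on chromosome 19, had 5.74, 8.85 and 11.5 in wildtype and 3.73, 13.5 and 4.76 in EVX1-Δfs EBs and was below the filter.

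**Figure D4:**
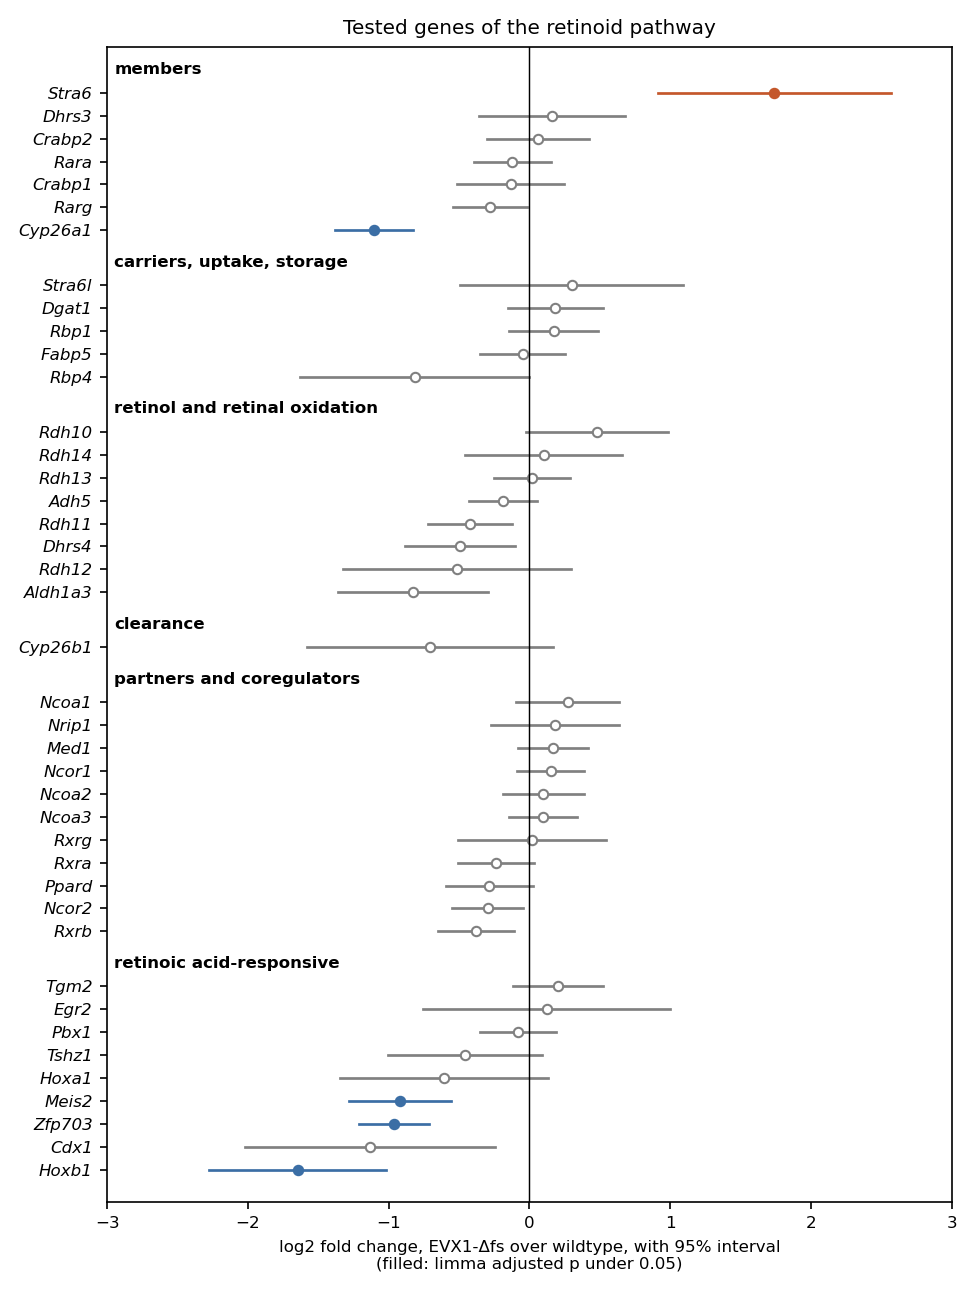
Log2 fold change, EVX1-Δfs over wildtype, with its 95% interval, for the 7 tested genes of the main set and the tested genes of the wider pathway that are reported here, grouped by role, with filled points where the limma adjusted p was under 0.05. The filled points are Stra6 (1.74) on the right and Cyp26a1 (-1.11), Zfp703 (-0.96), Hoxb1 (-1.65) and Meis2 (-0.92) on the left.

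The genes whose pattern over the 6 libraries was nearest to Cyp26a1 were sought among the 9237 tested genes that averaged 100 normalized counts or more. Likeness was the root mean square difference of the log2 values after centring each gene on its own mean. The nearest was Wnt5a, a signalling ligand of the posterior embryo, at 0.0767, with 459, 604 and 514 normalized counts in wildtype and 219, 301 and 245 in EVX1-Δfs EBs. Its libraries stood in the same order as those of Cyp26a1, with wildtype replicate 2 the highest and EVX1-Δfs replicate 1 the lowest. Gata2, a haematopoietic transcription factor, followed at 0.125, Tmem119, a membrane protein gene, at 0.130, Klhl6 at 0.143 and Hey1, a transcriptional repressor induced by Notch, at 0.170. All 5 were lower in EVX1-Δfs EBs, as the measure of likeness itself requires, with log2 changes of -1.04, -0.96, -1.02, -1.10 and -0.92.

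**Figure D5:**
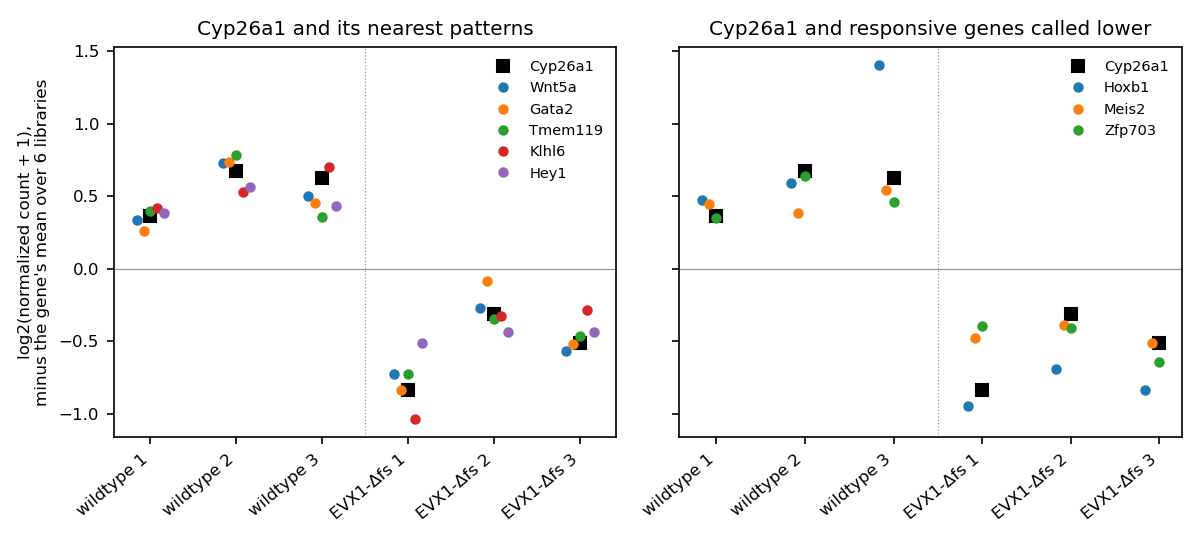
Log2(normalized count + 1) minus each gene's mean over the 6 libraries, by library, for Cyp26a1 (black squares) with the 5 genes of nearest pattern (left) and with 3 retinoic acid-responsive genes called lower (right). The points of Wnt5a stay closest to the squares, at a root mean square difference of 0.0767, and in both panels all wildtype points lie above 0 and all EVX1-Δfs points below it.

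Lists of cell type markers were read beside these values. Over all 13136 genes tested, limma called 2.95% lower and 2.08% higher. At an unadjusted limma p under 0.05, 12.4% were lower and 10.7% higher. With the replicate block, limma called 146 genes lower and 76 higher. DESeq2 called 517 genes lower and 284 higher, and edgeR 382 lower and 314 higher. Of 9 primitive streak and nascent mesoderm markers, 9 were tested and 5 were lower (3 with the replicate block), and their summed normalized count ran from 15200.2 to 18408 in wildtype and from 10515 to 13616 in EVX1-Δfs EBs. Of 10 paraxial mesoderm markers, 7 were tested and 4 were lower (3 with the block, sums 1278 to 1479 against 932 to 1155). Cyp26a1 is expressed in these tissues in the embryo. Neither sum overlapped between the groups, while 26.9% of single tested genes also had separate groups. The part of these tissues in the change of Cyp26a1 was not tested. Of 8 lateral and cardiac mesoderm markers, 7 were tested, with 2 lower and 1 higher (sums 3282 to 5397 against 1833 to 2439, also without overlap). The higher one, Tbx5, passed the filter only through the EVX1-Δfs libraries, and the block left 1 lower and 0 higher. Of 7 epiblast markers all were tested, with 1 higher and 0 lower by limma (sums 12651 to 20077 against 16330.5 to 20577). DESeq2 and edgeR each called 2 of them higher, 4 were higher at an unadjusted limma p under 0.05, and with the block 0 were called. Of 9 neurectoderm markers 2 were tested and 0 were called by limma, DESeq2 or edgeR, with 1 higher and 1 lower at an unadjusted limma p under 0.05 (sums 38.3 to 57.3 against 30.8 to 53.4), with Neurog2 and Six3 at 0 or 1 read in every library. Of 9 visceral endoderm markers 2 were tested and 0 were called by any of these or at an unadjusted p under 0.05 (sums 63.7 to 95.04 against 85.0 to 119), with Afp, Apoa4 and Fgb at or near 0.

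The libraries held 7597879 to 9914471 reads assigned to genes. The count of Evx1 itself was 2176 to 2400 in wildtype and 2012 to 2516 in EVX1-Δfs EBs, which is no check of the genotype, since a small frameshift need not change the number of reads.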

How the data were processed

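RNA-seq was examined in day 4 EBs of wildtype W9.5 and EVX1-Δfs clone 14 cells, with 3 libraries per genotype, grouped by the sample labels. The methods of the study describe mRNA selection, an Ion Proton sequencer, mapping to mm9 by TopHat2 followed by TMAP, and HTSeq counting at standard settings. Versions and gene annotation are not given in the sources used here. The signal that the authors deposited is reads per gene divided by 1 size factor per library. With a tolerance of 0.01 of a read, 100% of values came out as whole reads, 7597879 to 9914471 per library. The p-values measure the spread between differentiations of the same lines.

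The values were tested with limma (3.58.1, mean-variance trend) on log2(normalized count + 1), which understates changes of low genes, over 13136 genes with at least 10 in 3 libraries, in R 4.3.3. Ratios and shares were compared by exact permutation tests. Alternatives were pseudocounts of 4 and 16, all genes with any read, TMM and upper-quartile factors, DESeq2 (1.42.0) and edgeR (4.0.16) on recovered reads, voom, a replicate block, removal of GC and length trends (splines of 5 degrees of freedom), and leaving out each library. Limma with and without the replicate block, edgeR and DESeq2 were also run on simulated counts. These held no effect of day and no GC or length trend. The study's description says that wildtype and edited cells were differentiated together and that each such round began on its own day, so the replicate number was taken to mark a shared day. Deviations from the group means of same-numbered libraries correlated at 0.111, 0.00933 and -0.101 across 13136 genes.

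The 9 genes and the other lists were chosen with earlier results of these data known. Named beside the 9 genes were the called genes of the wider lists (1 is counted but not reported singly here), Rdh10, Rxra, Rxrb, Rxrg, Cyp26b1, Cyp26c1 and the 5 genes of nearest pattern to Cyp26a1. Gene places, lengths and GC content came from GENCODE vM1 on NCBIM37, where 94.2% of symbols matched, and promoters from RefSeq (GRCm38.p6).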

Additional observations from a re-analysis of the deposited data

How the results depend on the processing

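Over all tested genes the counts of calls moved under several of the alternatives. The replicate block gave 76 genes higher and 146 lower, removal of the GC and length trends 100 and 181, and both together 71 and 132. Leaving out 1 library gave 80 to 340 genes higher and 140 to 362 lower. Genes higher numbered 134 without wildtype replicate 3, 91 without EVX1-Δfs replicate 1 and 80 without EVX1-Δfs replicate 3, and genes lower 236, 244, 140 and 142 without wildtype replicates 1 and 3 and EVX1-Δfs replicates 1 and 3. Of the 9 genes, 1 was called with DESeq2 and 1 to 2 with a library left out, as Stra6 lost its call without each EVX1-Δfs library in turn and Cyp26a1 did not. The cause was not tested. The replicate block changed no call among the retinoid genes tested, and it lowered the counts of called epiblast and mesoderm markers as given above. For single genes of the 9, 110 values under the alternatives kept their direction and call, or changed sign uncalled by less than 1 SE. Another 5 changed sign uncalled by at least 1 SE, and 3 kept their direction but lost the call. The size of a shift without a change of sign was not graded. The Crabp1 to Crabp2 difference ran from -0.497 to 0.0279 with a library left out, that of Cyp26a1 to Aldh1a2 from -0.96 to -0.0229, and that of the Rarg share from -4.08 to -1.3 percentage points. Depth limits what can be said of Aldh1a2 (60 reads in all) and Rarb (11 reads), and the single clone limits every comparison.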

Other observations

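The genes in this paragraph were chosen after their values were seen. Aldh1a3, a second enzyme that oxidises retinal to retinoic acid, was more abundant than Aldh1a2, with 42.1, 52.2 and 56.1 normalized counts in wildtype and 26.1, 32.7 and 24.8 in EVX1-Δfs EBs. The groups did not overlap, as in 26.9% of all tested genes, and its log2 change of -0.82 (95% interval -1.36 to -0.29) did not pass the test (limma adjusted p = 0.0608). Hoxb4, a retinoic acid-responsive Hox gene below the filter, had 9.57, 8.85 and 10.3 in wildtype and 1.87, 1.13 and 3.81 in EVX1-Δfs EBs, and in the limma fit over all genes with any read it was called lower (log2 change -1.78, adjusted p = 0.0446).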
